A study of Mus musculus with 4 samples.

Results

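The complement genes of the aorta are described here across 2 mouse strains and 2 diets. The set was given as 9 genes by name: C1qa, C1qb, C1qc, C2, C3, C4b, Cfb, C3ar1 and Serping1. Its members on the array are the probe sets whose platform annotation gives exactly 1 gene symbol and that symbol is one of the 9. This gave 13 of the 45101 probe sets, for 7 of the 9 genes. C3 had no annotated probe set and C4b had none of its own, so neither has a value here. Of the 7 genes, 6 passed the filter on low intensity among 11718 genes in all, and Cfb did not. The probe sets that stand for these 6 read above the filter level on every array.

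RNA from the aorta was hybridised to 4 Affymetrix mouse arrays, 1 for each group. The B6 groups were C57BL/6 apoE-/- mice, which lack apolipoprotein E and are labelled with atherosclerosis, and the Ath29 groups were congenic mice on the C57BL/6 strain that are labelled as resistant to it. The apoE-/- genotype is stated for the B6 mice, and the labels do not say whether Ath29 mice carry it too. Weaning was at 3 weeks of age, and from 4 weeks of age the mice stayed on chow or ate a Western diet for 2 weeks. It is not stated whether animals were pooled for an array. With 1 array per group no single difference can be checked against replicates, and the number of arrays limits the precision of every value.

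Complement is a cascade of plasma and tissue proteins that marks particles, dying cells and immune complexes for removal. The classical pathway starts when C1q, a hexamer built from the chains A, B and C encoded by C1qa, C1qb and C1qc, binds its target and activates the proteases C1r and C1s. C1s then cuts C4 and C2 to form the classical C3 convertase, while factor B, the product of Cfb, supplies the protease of the alternative convertase. The C1 inhibitor, encoded by Serping1, blocks C1r and C1s, and C3ar1 encodes the receptor for the fragment C3a. Most circulating complement is made in the liver, whereas C1q is made mainly by macrophages and dendritic cells, which makes it a known product of macrophages in the atherosclerotic vessel wall.

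In the reference gene table of GRCm38.p6, C1qb, C1qc and C1qa follow one another on chromosome 4, and Cfb and C2 are neighbours on chromosome 17. Serping1 lies on chromosome 2 and C3ar1 on chromosome 6, so none of the 7 measured genes lies on chromosome 9, the chromosome of the Ath29 locus. The promoter sequences used here hold none for C1qa, which read higher on Western diet in both strains. The 250 bases before the transcription start are shown for C1qb, C1qc and C3ar1, whose intensities were also higher on Western diet in both strains. They are RefSeq sequences of GRCm38.p6, written 5′ to 3′ on the gene's strand, and capitals mark the hexamer GAGGAA on either strand, an ETS core with the flank preferred by PU.1, a transcription factor of myeloid cells.
C1qb, chr4:136886201-136886450, minus strand: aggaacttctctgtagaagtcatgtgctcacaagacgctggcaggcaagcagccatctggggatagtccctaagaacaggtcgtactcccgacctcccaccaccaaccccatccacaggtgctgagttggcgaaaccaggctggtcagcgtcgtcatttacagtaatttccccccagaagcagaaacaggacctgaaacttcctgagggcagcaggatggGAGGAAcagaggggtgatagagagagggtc
C1qc, chr4:136892915-136893164, minus strand: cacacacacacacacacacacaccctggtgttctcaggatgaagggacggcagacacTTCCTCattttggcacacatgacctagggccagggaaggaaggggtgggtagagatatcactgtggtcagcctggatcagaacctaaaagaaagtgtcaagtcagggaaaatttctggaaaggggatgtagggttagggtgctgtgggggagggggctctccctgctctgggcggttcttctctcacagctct
C3ar1, chr6:122856158-122856407, minus strand: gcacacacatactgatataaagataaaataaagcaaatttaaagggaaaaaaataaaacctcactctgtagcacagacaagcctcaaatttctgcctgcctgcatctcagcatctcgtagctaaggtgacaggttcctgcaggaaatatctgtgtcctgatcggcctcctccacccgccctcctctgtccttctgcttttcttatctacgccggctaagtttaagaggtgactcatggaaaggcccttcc
GAGGAA occurs in the windows of C1qb and C1qc, and 23.25% of all 32851 promoter windows of this length hold it. In C1qb it spans bases 30 to 25 before the start, and in C1qc it spans bases 193 to 188 on the opposite strand. An interferon response element, as GAAA and GAAA 2 bases apart (2.977% of all windows), the gamma-activated site TTCNNNGAA (7.02%), the C/EBP motif TTGCNNAA (9.564%) and the classical kappa B decamer (0.14%) had no match in these 3 windows on either strand. A looser kappa B form, GGG and CC 5 bases apart, which includes the decamer, matched in all 3 windows and in 45.8% of all. These matches describe letters and are not binding sites.

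The arrays carried the signal of vessel wall and of fat. Values are intensities after the arrays were set to a common median, with shift factors of 0.990 to 1.02 on deposited medians of 27.95 to 28.8. The smooth muscle genes Acta2 and Mylk read 10395 to 11269 and 6637 to 7605. The white fat genes Fabp4 and Car3 read 9034 to 9686 and 7551 to 9555. Summed over each list, smooth muscle genes came to 33034 to 39464 and white fat genes to 27184 to 33429. The part of fat in the complement values was not tested. The extract protocol names liver. Of the 24 measured hepatocyte genes 15 lay below the filter level of 27.4, where 35.6% of all 18193 genes with a probe set did. The brightest of the list was the cytochrome gene Cyp2e1 with 2541 to 4852, followed by Rbp4 with 253 to 344 and Itih3 with 97.0 to 188, and albumin (Alb) read 33.7 to 64.0. Among complement genes known from liver, C8a and C8b lay under the intensity floor of 9.60 on all 4 arrays, while C8g read 50.7 to 61.8, Vtn 41.9 to 55.0 and Mbl1 29.3 to 37.4. B6 Western stood apart in heart muscle genes, whose summed intensity was 15484 there against 975 to 1539 on the other arrays. It was also highest in brown fat genes, with 22052 against 9915 to 16617. Ratios of 3' to 5' signal ran from 24.4 to 31.5 for actin and from 22.8 to 31.3 for Gapdh, with Ath29 chow at the top for actin and at the bottom for Gapdh. The 3' signal thus far exceeded the 5' signal on all 4 arrays. The actin ratio of 3' to middle signal was 10.2 on Ath29 chow, 7.62 on Ath29 Western and 5.10 to 5.63 on the B6 arrays. The part of these differences in the results below was not tested.

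The comparison of diets asks how the aorta differs after a Western diet in each strain. By their brightest probe sets, C1qa, C1qb, C1qc and C3ar1 were each higher on Western diet than on chow in both strains. C2 was higher in Ath29 mice and not in B6 mice, and Serping1 differed little. The C2 difference in Ath29 mice was 0.998 on the log2 scale from its brightest probe set and 0.16 from its dimmest. For C1qa, C1qb, C1qc and C3ar1 the diet difference lay between 0.53 and 1.17 on the log2 scale, or 1.44-fold to 2.25-fold. Because these are bulk samples, more cells of a type and more RNA per cell cannot be told apart.

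C1qa read 68.8 on chow and 101.6 on Western diet in B6 mice, and 65.2 on chow and 109.8 on Western diet in Ath29 mice. Both Western arrays were above both chow arrays, and the strains were close on each diet. The log2 diet difference was 0.56 in B6 mice and 0.75 in Ath29 mice. C1qc read 36.3 on chow and 66.6 on Western diet in B6 mice, and 47.2 on chow and 81.0 on Western diet in Ath29 mice. The groups again did not overlap by diet, and within each diet the Ath29 array was the higher. Its log2 diet difference was 0.88 in B6 mice and 0.78 in Ath29 mice.

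C1qb has 3 probe sets, and the brightest stands for the gene. It read 582 on chow and 1312 on Western diet in B6 mice, and 1034 on chow and 1494 on Western diet in Ath29 mice. The B6 chow array was the low one, so that the log2 diet difference was 1.17 in B6 mice against 0.53 in Ath29 mice. The other probe set of the same kind, whose name ends in _x_at because its probes can bind several transcripts, gave 1.27 and 0.50. The dimmest C1qb probe set read 21.0 on chow and 50.5 on Western diet in B6 mice, and 24.4 on chow and 47.9 on Western diet in Ath29 mice, which is 1.26 and 0.97. All 3 were higher on Western diet in each strain, but the size of the difference in Ath29 mice depended on the probe set. The chow values of the dimmest one lie under the filter level, so its differences rest on low signal and are uncertain.

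C3ar1, the C3a receptor of myeloid cells, read 30.1 on chow and 60.7 on Western diet in B6 mice, and 34.7 on chow and 59.2 on Western diet in Ath29 mice. All 4 values were low, just above the filter level on chow, and the diets did not overlap. The log2 diet difference was 1.01 in B6 mice and 0.77 in Ath29 mice. The 2 other C3ar1 probe sets lay below the filter. One read 18.5 on chow and 24.6 on Western diet in B6 mice, and 12.9 on chow and 36.8 on Western diet in Ath29 mice. The other read 28.4 on chow and 18.7 on Western diet in B6 mice, and 17.9 on chow and 18.6 on Western diet in Ath29 mice, with a log2 diet difference of -0.60 in B6 mice and 0.06 in Ath29 mice. Of these 8 values 6 lie under the filter level, so no direction is read from them, and the C3ar1 difference rests on 1 probe set above the filter.

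C2, the protease part of the classical convertase, read 337 on chow and 326 on Western diet in B6 mice, and 264 on chow and 528 on Western diet in Ath29 mice from its brightest probe set. Ath29 Western stood above the other 3 arrays, Ath29 chow was the lowest, and the diets overlapped. The log2 diet difference was -0.048 in B6 mice and 0.998 in Ath29 mice, where the ratio of 1.997 fell just short of 2-fold. The next probe set gave 0.12 and 1.18. Its Western values, 241 in B6 and 406 in Ath29 mice, lay above both of its chow values, 222 and 179. Both are of the _x_at kind. The remaining C2 probe set, which is not, read 93.0 on chow and 81.7 on Western diet in B6 mice, and 94.5 on chow and 105.5 on Western diet in Ath29 mice, with diet differences of -0.19 and 0.16. The excess in Ath29 Western was smaller in that probe set.

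Serping1, the C1 inhibitor, read 3684 on chow and 3489 on Western diet in B6 mice, and 2897 on chow and 3693 on Western diet in Ath29 mice. Ath29 chow was the lowest, and the other 3 arrays lay close together. The log2 diet difference was -0.08 in B6 mice and 0.35 in Ath29 mice. Ath29 chow was the low array for Serping1, the protease gene C1s1 and the C2 probe sets of the _x_at kind. In the remaining C2 probe set it read 94.5, and B6 Western was the lowest with 81.7. Ath29 chow is also the array with the highest actin and the lowest Gapdh ratio of 3' to 5' signal. The part of these ratios in the values was not tested.

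Cfb, the protease of the alternative convertase, read 9.70 on chow and 20.7 on Western diet in B6 mice, and 22.7 on chow and 14.7 on Western diet in Ath29 mice. All 4 values lie under the filter level of 27.4, the range in which a signal is not told apart from background here. Its log2 diet differences of 1.09 in B6 mice and -0.62 in Ath29 mice are given without a reading.

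**Figure D1:**
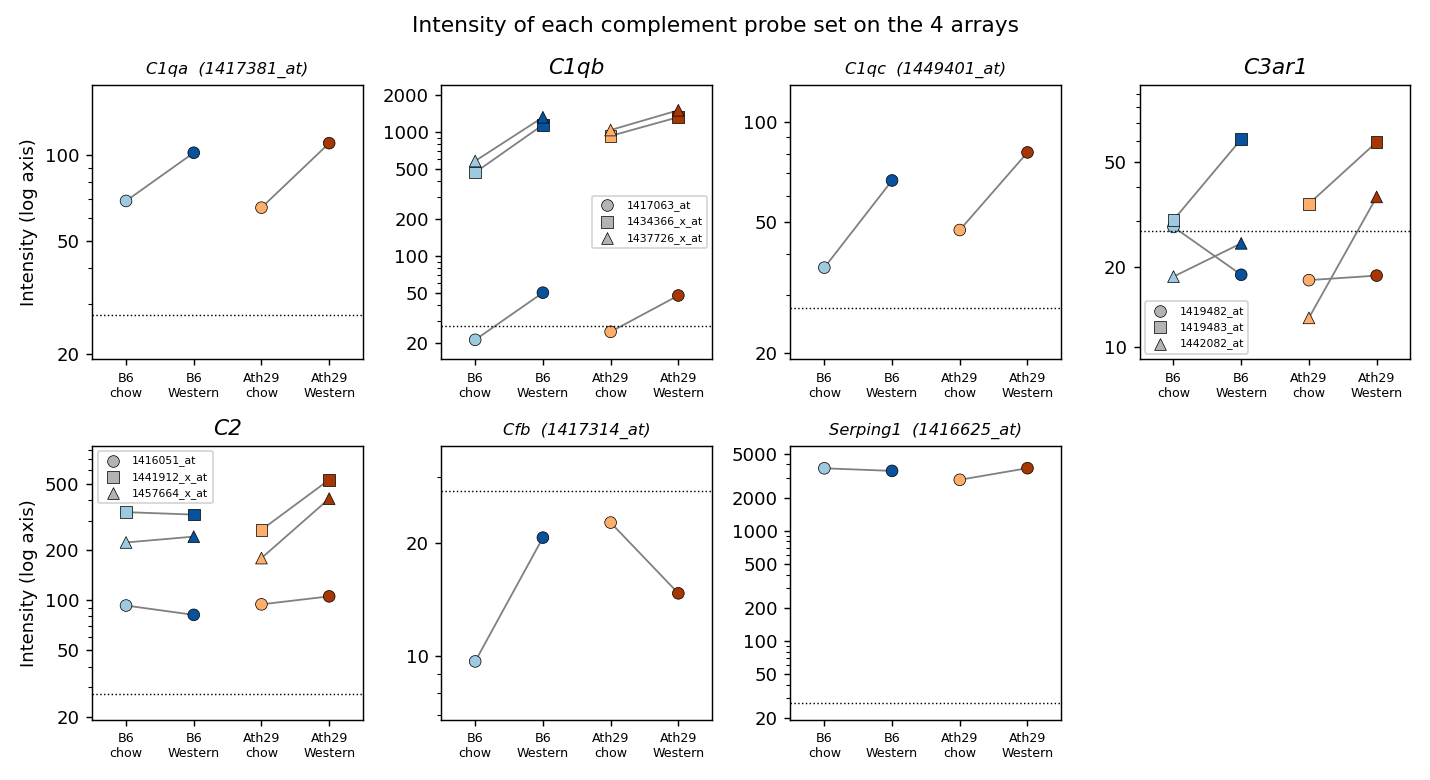
Intensity of all 13 complement probe sets (log axis) on the 4 arrays, with 1 panel for each gene and 1 point for each array. Marker shapes stand for probe sets, grey lines join chow and Western diet within a strain, and the dotted line is the filter level of 27.4. C1qa, C1qc and all 3 C1qb probe sets are higher on Western diet in both strains, and Cfb lies under the dotted line throughout.

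At least 2-fold higher on Western diet in B6 mice were 2 of the 6 filtered members, C1qb and C3ar1, where 4.11% of all 11718 genes were. In Ath29 mice 0 of 6 reached 2-fold, against 1.33% of all genes. No member was at least 2-fold lower on Western diet, where 1.17% of genes were in B6 and 0.853% in Ath29 mice. At 1.5-fold, 3 of 6 members were higher in B6 mice, beside 9.96% of all genes, and 4 of 6 in Ath29 mice, beside 6.03%. The median diet difference of the 6 members was 0.72 in B6 and 0.76 in Ath29 mice, beside -0.06 and 0.04 over all genes. Both Western values exceeded both chow values for 4 of the 6 genes, C1qa, C1qb, C1qc and C3ar1, as for 12% of all genes. Counted by probe set and without the filter, this held for 8 of 13, as for 10.7% of the 34945 probe sets with 1 gene symbol. Probe sets of the same gene are repeat readings and not separate members. The 8 include every C1qb probe set, a second one of C3ar1 and the second brightest of C2. The dimmest C1qb probe set and that second C3ar1 probe set have chow values under the filter level.

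An additive fit of strain and diet with limma uses the 4 arrays together, with 1 residual degree of freedom from the difference between the diet effects of the strains. That residual is moderated by a prior over all genes with 4.94 degrees of freedom, so the standard errors come mostly from the prior. Its diet estimates were 0.66 ± 0.24 (SE) for C1qa, 0.85 ± 0.27 for C1qb, 0.83 ± 0.24 for C1qc and 0.89 ± 0.24 for C3ar1. In this limma fit the unadjusted p-values were 0.0345 for C1qa, 0.0204 for C1qb, 0.0134 for C1qc and 0.0106 for C3ar1. After Benjamini-Hochberg adjustment over 11718 genes, the limma p was 0.99996 for each of the 6 members, so that none passed at 0.05. No gene of the table passed for diet (0% of genes), while 2.48% had an unadjusted p under 0.05. C2 had a diet estimate of 0.47 ± 0.32 and Serping1 one of 0.14 ± 0.25.

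The comparison of strains asks how the aorta differs between Ath29 and B6 mice on each diet. None of the 6 filtered members differed by 2-fold on either diet. Cfb gave 1.22 on chow, from values below the filter level on every array, and is left without a reading. On chow C1qb had the largest difference, 0.83 on the log2 scale or 1.78-fold higher in Ath29 mice, and C1qc followed with 0.38. At 1.5-fold C1qb was the 1 member of 6 that was higher, beside 7.28% of all genes. C3ar1 gave 0.20, C1qa -0.08, Serping1 -0.35 and C2 -0.35. The C1qb probe sets disagreed in size on chow, with 0.98 for the other of the _x_at kind and 0.21 for the dim one. On Western diet C2 had the highest value, 0.69, which its probe set that is not of the _x_at kind put at 0.37. C1qc gave 0.28 there, C1qb 0.19, C1qa 0.11, Serping1 0.08 and C3ar1 -0.04.

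Counts of 0 of 6 members stood beside 2.17% of genes higher by 2-fold or more and 1.94% lower in Ath29 mice on chow, and beside 0.845% higher and 2.03% lower on Western diet. Over the 6 members the median strain difference on chow was 0.06, and on Western diet 0.15, against -0.08 and 0.00 over all genes. For no member did both Ath29 arrays exceed both B6 arrays, which was so for 12.6% of genes. For C1qa, C1qb, C1qc and C3ar1 this could not occur, because B6 Western read above Ath29 chow. The count therefore says nothing about strain for these genes, and C1qc read higher in Ath29 mice on each diet. In the limma fit the strain estimate was 0.51 ± 0.27 (SE) for C1qb and 0.33 ± 0.24 for C1qc, with an adjusted p of 0.99991 for both. No gene passed for strain (0%), and 2.59% of genes had an unadjusted limma p under 0.05.

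**Figure D2:**
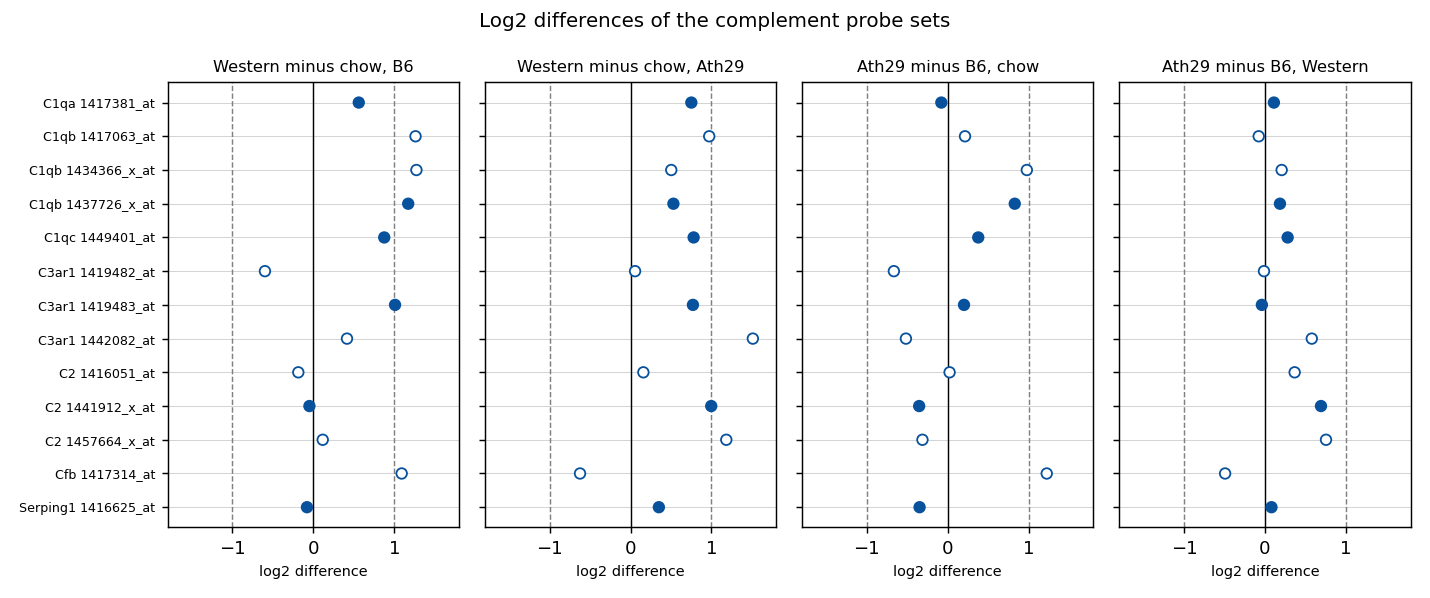
Log2 differences of the 13 complement probe sets in the 4 comparisons, 1 point for each probe set, with dashed lines at 2-fold. Filled points are the probe sets that stand for a gene kept by the filter. The C1q points lie to the right of 0 in both diet panels and nearer to 0 in the strain panels, except 2 C1qb probe sets on chow.

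The diet difference can also be set between strains. It was larger in Ath29 than in B6 mice by 1.05 on the log2 scale for C2, the 1 member of 6 that reached 2-fold, as did 4.95% of all genes. The C2 probe set that is not of the _x_at kind gave 0.34. It was smaller in Ath29 mice by at least 2-fold for 0 of 6 members, against 6.77% of genes, and the lowest value was -0.64 for C1qb. For C1qa, C1qc and C3ar1 the diet differences of the 2 strains lay within 0.24 of each other. With 1 array per group this difference was not tested.

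Macrophage genes, from cells known to make C1q, moved with these values. Of 20 listed genes 15 passed the filter, and all 15 read higher on Western diet in each strain (Adgre1 by 0.00157 in Ath29 mice), the median being 0.86 for B6 mice and 0.49 for Ath29 mice. Of all genes 43.4% read higher on Western diet in B6 mice, 56.2% in Ath29 mice and 19.3% in both strains. Summed over all 20 genes, their intensity came to 7928 on chow and 14600 on Western diet in B6 mice, and 9357 on chow and 14283 on Western diet in Ath29 mice. Ctss, a lysosomal protease, differed by 1.43 and 1.24 between diets, and Csf1r, the receptor for the macrophage growth factor, by 0.55 and 0.30. Laptm5 gave 0.70 and 0.49, and the lysozyme gene Lyz2 gave 0.89 and 0.43. Of the macrophage genes below the filter, Cd14 lay under the floor on all 4 arrays. Cx3cr1 gave -0.06 and -1.46 and Aif1 0.75 and -0.53, while Fcgr1 gave 1.77 and 0.87 and Fcer1g 0.19 and 0.98. Their signal was low, so no direction is read from them.

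The C1q genes lay within the range of the macrophage genes. Diet differences of the filtered macrophage genes ran from 0.05 to 2.14 in B6 mice and from 0.00157 to 2.32 in Ath29 mice. In B6 mice the diet difference minus the macrophage median was -0.30 for C1qa, 0.31 for C1qb and 0.01 for C1qc, and in Ath29 mice it was 0.26, 0.04 and 0.29. C3ar1 gave 0.15 and 0.28. Between strains the macrophage median was 0.26 on chow and 0.04 on Western diet, and C1qb on chow exceeded it by 0.57. Single macrophage genes reached 0.74 on chow, and the dim C1qb probe set gave 0.21 there. For diet, C2 (-0.91 and 0.51) and Serping1 (-0.94 and -0.14) departed from the macrophage median by more in B6 mice. The part of macrophage number in the complement values was not tested.

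Lists of other cells and tissues had other patterns over the arrays. Fibroblast genes, from cells that also make C1 inhibitor and other complement proteins, had a median diet difference of -0.25 for B6 mice and 0.12 for Ath29 mice, and smooth muscle genes -0.22 and 0.09. Endothelial genes gave -0.13 and 0.13, neutrophil genes 0.04 and -0.17, and white fat genes 0.45 and -0.18. Brown fat genes (1.55 and -0.49) and heart muscle genes (3.21 and -0.12) were higher on Western diet in B6 mice and lower in Ath29 mice. The part of these lists in the complement values was not tested.

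**Figure D3:**
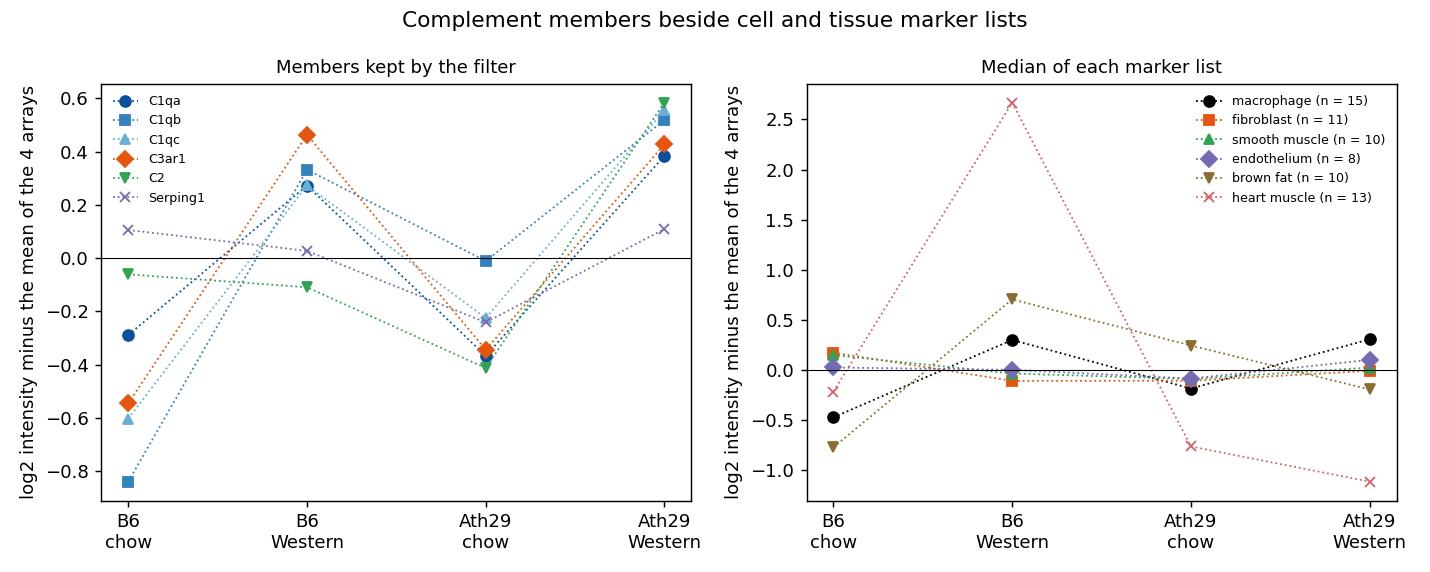
Log2 intensity minus the mean of the 4 arrays, for the 6 members kept by the filter (left) and as the median of 6 marker lists (right, with the number of genes). The 2 panels have different vertical scales, and dotted lines join the points of 1 gene or list. The C1q genes, C3ar1 and the macrophage list are higher on both Western arrays than on both chow arrays, while heart muscle stands out on B6 Western.

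The genes most similar to C1q over the 4 arrays were found by the root mean square difference, on the log2 scale, between each gene's values and the mean of C1qa, C1qb and C1qc, after centring each gene on its own mean. The 6 closest of 11718 genes were Nudt12os (0.051, at intensities of 19.6 to 37.7), Cd300a (0.056), Cotl1 (0.060), Cspp1 (0.061), Cd68 (0.075) and Myo1g (0.076). C1qc itself lay 0.040 from that mean, C1qb 0.16 and C1qa 0.17, so that C1qa and C1qb were further from it than these genes. Nudt12os is annotated as a long noncoding RNA and lay under the filter level on both chow arrays. Cspp1 is a centrosome and spindle pole protein, Cd300a is an inhibitory receptor of leukocytes, Cd68 a lysosomal glycoprotein of macrophages, Cotl1 an actin-binding protein and Myo1g a myosin of blood cells. Cd68 read 38.0 on chow and 69.4 on Western diet in B6 mice, and 50.1 on chow and 89.9 on Western diet in Ath29 mice. C3ar1 was 22nd with 0.12, C2 1371st with 0.35 and Serping1 3452nd with 0.41. With 4 arrays, likeness of this kind is a description of these arrays.

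Of 47 other complement genes on a list of the pathway, 22 passed the filter, 17 fell under it, and for 8 the annotation gives no single-gene probe set. The 22 had a median diet difference of 0.18 in B6 mice and of 0.19 in Ath29 mice, beside -0.06 and 0.04 over all genes. At least 2-fold higher on Western diet were 3 of 22 in B6 and 1 of 22 in Ath29 mice, beside 4.11% and 1.33% of all genes. At least 2-fold lower were 0 of 22 in either strain, beside 1.17% and 0.853%.

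Among the initiating proteins, C1s1, the protease C1s, read 97.6 on chow and 138.0 on Western diet in B6 mice, and 43.8 on chow and 114.9 on Western diet in Ath29 mice. The Ath29 chow array was the low one, which gave diet differences of 0.50 and 1.39 and a strain difference of -1.16 on chow, the single 2-fold strain difference among the 22. Its probe set may also read the close copy C1s2, so this value is uncertain. C1ra, the partner protease, gave 0.25 and 0.41. Fcna, a ficolin of the lectin pathway, read 33.8 on chow and 73.1 on Western diet in B6 mice, and 58.9 on chow and 43.1 on Western diet in Ath29 mice, which is 1.11 in B6 and -0.45 in Ath29 mice.

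Among regulators, Cd55, which speeds the decay of convertases on cell surfaces, read 131 on chow and 295 on Western diet in B6 mice, and 149 on chow and 234 on Western diet in Ath29 mice. Both Western values were above both chow values, with diet differences of 1.17 and 0.65, but a second Cd55 probe set gave 0.39 and -0.66. From their brightest probe sets the other regulators named here differed less between diets. Clu, which encodes clusterin, gave -0.10 and 0.20, where another of its probe sets gave -0.23 and 0.53, and Cd59a, which blocks the membrane attack complex, gave 0.17 and 0.18. Cr1l, the rodent convertase regulator Crry, gave -0.11 and 0.02, and its second probe set -0.08 and 0.77. Cfp, the stabiliser properdin, gave 0.19 and 0.24, and its second probe set 0.81 and 0.44.

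Among receptors and binding proteins, Itgb2, the beta chain shared by complement receptors 3 and 4, read 71.8 on chow and 169.5 on Western diet in B6 mice, and 91.3 on chow and 160.9 on Western diet in Ath29 mice. Its diet differences were 1.24 and 0.82, close to those of C3ar1. Its alpha partners Itgam (0.26 and 0.45) and Itgax (0.31 and 0.25) differed less. C1qbp (0.22 and -0.20), Calr (-0.20 and 0.20) and Cd93 (-0.12 and -0.39) were not higher on Western diet in both strains by their brightest probe sets, though the other C1qbp probe set gave 0.51 and 0.05. The collectins Colec11 (-0.10 and 0.09) and Colec12 (-0.51 and 0.05) did not reach 2-fold. Terminal pathway genes other than C8g, namely Hc, C6, C8a, C8b and C9, lay below the filter.

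**Figure D4:**
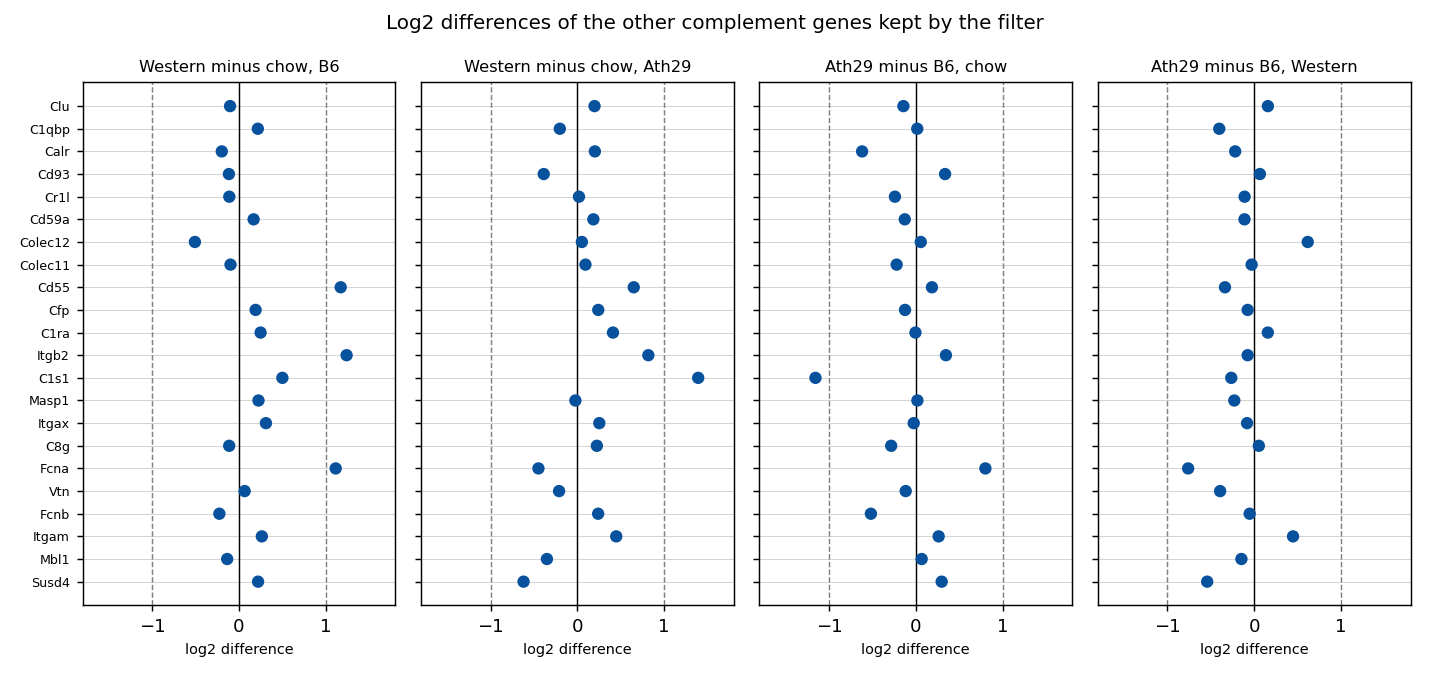
Log2 differences of the 22 other complement genes kept by the filter in the 4 comparisons, 1 point for each gene, from the highest mean intensity at the top to the lowest, with dashed lines at 2-fold. Cd55, Itgb2 and Fcna lie beyond 2-fold in B6 mice and C1s1 in Ath29 mice, and most other genes lie near 0.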

How the data were processed

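The authors deposited 1 table of probe set intensity values on a linear scale from 0.57 to 13421, read as such from the values. How the authors made them (software, background correction, scaling) is not given in the sources used here. Gene names come from the platform annotation, with symbols updated by gene identifier. Intensities were taken to log2, set to a common median, and raised to the 25th percentile (9.60) where lower. Genes with a mean above the median of all non-control probe sets (27.4) were kept, each read from its brightest probe set.

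Differences of at least 2-fold were counted. The additive fit used limma 3.58.1 in R 4.3.3 with 1 residual degree of freedom. Alternatives covered normalization, filter, floor, probe set, threshold and the prior of the fit. The members and lists were chosen with earlier results of these data known. Named genes were all members, the other complement genes at least 2-fold different or among the 10 brightest, the 6 most similar to C1q, and up to 4 of each marker list by brightness. C1ra, Itgam, Itgax, Hc, C6, C8a, C8b, C8g, C9, Vtn, Mbl1, Adgre1, Alb, Cd14, Cx3cr1, Aif1, Fcgr1 and Fcer1g were named after their values were seen.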

Additional observations from a re-analysis of the deposited data

How the results depend on the processing

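Each alternative changed 1 choice. Of 100 recomputed counts and medians of the members, 92 stayed within 1.5 times the count or within 0.25 of the log2 median. Part of these had little room to change. Both other floor settings returned the same member values, and many of the counts were 0 at the start. Members at least 2-fold higher on Western diet in B6 mice numbered 2, and 1 with the filter at the 75th percentile (3 members measured), 1 with the mean of all probe sets (5 measured) and 0 at 3-fold. In Ath29 mice they numbered 0, and 4 at 1.5-fold (6.03% of all genes). Members higher in Ath29 mice on chow numbered 0, and 1 at 1.5-fold (C1qb, with 7.28% of all genes) or with no filter (Cfb, below the filter level on every array). With the filter at the 75th percentile, which kept C1qb, C2 and Serping1, the median diet difference in B6 mice was -0.048 and the median strain difference on chow -0.35.

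The other probe sets of each member were added after seeing the data. For C3ar1 in B6 mice they gave -0.60 and 0.42 in place of 1.01, and in Ath29 mice 0.06 and 1.51 in place of 0.77; the cause was not tested. The additive limma fit called 0 members for diet and for strain under every alternative, including an intensity trend in its prior. Over all genes it called 0 for diet, and 2 without _x_at, _s_at and _a_at probe sets. For strain it called 0, and 1 to 4 under 5 alternatives, the most with the trend. Setting a common 75th percentile moved the share of higher among 2-fold strain differences on chow from 52.8% to 64.6% of all such genes, against 44.6% without _x_at, _s_at and _a_at probe sets. With the filter at the 75th percentile that share moved from 29.4% to 14.3% for strain on Western diet (42.01% with no filter), from 60.9% to 78.9% for diet in Ath29 mice and from 77.9% to 87.9% for diet in B6 mice. No paired analysis was possible because each group has 1 array. Leaving out an array was not run, since it leaves no residual degree of freedom. Signal over background limits C3ar1, Cfb and the dim C1qb probe set most.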
